A study of Homo sapiens with 8 samples.

Results

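The H/ACA box small nucleolar RNAs (SNORA genes) and the small Cajal body RNAs (SCARNA genes) were examined as a group. A row of the array table counted when it carried exactly 1 gene symbol and that symbol was SNORA or SCARNA followed by a digit, and the brightest row was kept where a symbol had several. This gave 81 RNAs, 61 SNORA and 20 SCARNA, among 22109 genes tested. They came from 90 rows, because 5 of the RNAs had more than 1 row. Rows naming several genes carried 34 further RNAs of these families and were left out, among them SNORA73A.

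An H/ACA RNA folds into hairpins whose pockets base-pair with a target RNA and direct the enzyme dyskerin to convert a chosen uridine to pseudouridine. Each works as a particle with dyskerin (DKC1), NOP10, NHP2 and GAR1. SNORA RNAs act mainly on ribosomal RNA in the nucleolus, whereas SCARNA RNAs collect in Cajal bodies and guide modification of the spliceosomal RNAs; some SCARNA RNAs carry the C/D box, which directs ribose methylation, alone or joined to an H/ACA domain. In human cells most of these RNAs are cut from introns of host genes, so that a single transcript gives both the spliced host RNA and the small RNA, and SCARNA2 is a known case transcribed from its own promoter.

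The cells were MDA-MB-231, an established triple-negative breast cancer line from a pleural effusion, and the study asked how sub-lethal amounts of a plant extract change its transcriptome. Total RNA was read on 8 whole-transcript Affymetrix arrays, 3 from untreated cells (control), 3 from the low dose and 2 from the high dose. The sample titles and treatment description give an extract of wild yam root (Dioscorea villosa), 15 or 30 micrograms per mL for 24 h, dissolved in ethanol and diluted in buffered saline, and do not say that the controls received the solvent. Other label fields of the same samples name instead a Boswellia serrata extract at 128 micrograms per mL (low) and 3-O-acetyl-beta-boswellic acid at 46 micrograms per mL (high), so the groups are called low and high dose here. Nothing in the labels says that the replicates came from separate cultures, and p-values then measure only the spread between these arrays. The mesenchymal markers of this line were bright (VIM at a mean log2 value of 8.92 in the controls), the oestrogen and progesterone receptor genes ESR1 and PGR were dim at 1.89 and 1.49, and the leukocyte gene PTPRC read 1.01; CD68, a lysosomal gene used as a macrophage marker, read 8.10.

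All values are log2 intensities, and a difference of 1 is a 2-fold difference in signal. Single arrays stood apart before any comparison was made. The 75th percentile over all genes was 4.73 on control 3, 4.54 on low 3 and 4.54 on high 2, against 4.80 to 4.94 on the other 5 arrays. Over the 81 RNAs, control 3 correlated with controls 1 and 2 at 0.89 and 0.91, while controls 1 and 2 correlated at 0.99 with each other. For the kept rows of the 81 RNAs, a printed difference from control that moved by over 1.5 times or crossed the threshold without control 3 is given both ways. Control 3 was singled out from these same values, so adjusted p-values without it are descriptive only.

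The H/ACA and Cajal body RNAs were brightest on control 3. Each RNA's mean over the 8 arrays was subtracted, and the median of these deviations was -0.35, -0.42 and 0.85 on controls 1 to 3, -0.04, -0.13 and -0.28 on low arrays 1 to 3, and 0.46 and -0.06 on high arrays 1 and 2. The groups thus overlapped, with the highest array and the lowest array both among the controls. Over all genes tested the same medians stayed between -0.12 and 0.06. Control 3 was the highest of the 8 arrays for 51 of the 81 RNAs, or 63.0%, against 20.5% of all genes, and high 1 was the highest for 15 more. The lowest array was low 3 for 23 RNAs, control 2 for 20 and control 1 for 13.

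**Figure D1:**
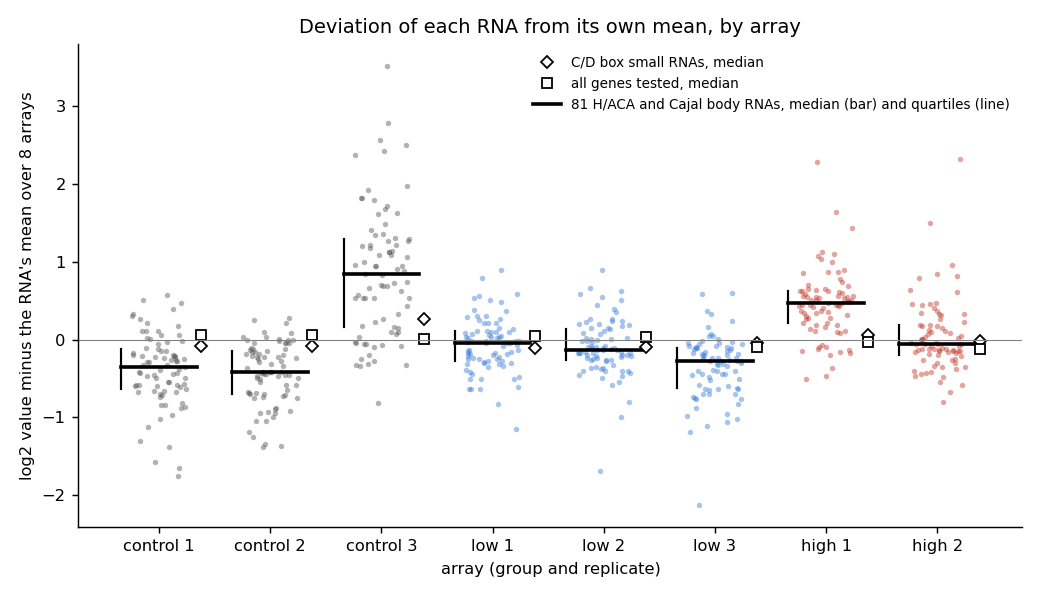
Log2 value minus the RNA's own mean over the 8 arrays (vertical axis) for each of the 81 H/ACA and Cajal body RNAs (points), by array (horizontal axis; grey control, blue low dose, red high dose). Thick bars are medians, thin vertical lines span the quartiles, and open symbols give the medians of the 157 C/D box small RNAs and of all 22109 genes; the median bar stands at 0.85 on control 3 and at 0.46 on high 1.

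Controls 1 and 2 differed little in these RNAs, with a median absolute difference of 0.18. Control 3 minus the mean of controls 1 and 2 had a median of 1.19, was above 0 for 68 of 81 RNAs and above 1 for 46. That share, 56.8%, compares with 1.22% of all genes and with 17.8% of the 157 C/D box small RNAs (SNORD genes). The difference ran from -0.86 for SCARNA9L to 5.09 for SNORA38B, which was the largest of all 22109 genes, and 7 of the 10 genes with the largest such difference were among the 81. SNORA and SCARNA RNAs had like medians, 1.25 and 1.18. The 3 SCARNA RNAs listed with both box types, SCARNA5, SCARNA6 and SCARNA10, stood 1.28, 1.67 and 1.78 higher on control 3. Of the 3 listed as C/D type, SCARNA2 and SCARNA7 stood 0.97 and 1.34 higher while SCARNA17 was 0.21 lower (-0.21). The other 14 SCARNA RNAs, SCARNA9L among them, were not sorted by box type.

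The difference was seen at every level of signal. It exceeded 1 for 7 of 19 RNAs with a mean log2 value under 3, for 13 of 24 between 3 and 5, and for 26 of 38 at 5 or more; these boundaries were chosen after the values were seen. Low 3 lay below both other low arrays for 56 of 81 RNAs (69.1%, against 60.1% of all genes). Over all 81, low 3 minus the mean of low 1 and low 2 had a median of -0.33 (all genes -0.18). High 1 lay above high 2 for 71 of 81 (87.7%, against 64.2% of all genes). Over all 81, high 1 minus high 2 had a median of 0.49 (all genes 0.12). At a mean log2 value of 5 or more, all genes shared much of both shifts. The low 3 median there was -0.44 for the RNAs and -0.36 for all genes, and the high 1 median 0.55 and 0.33.

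**Figure D2:**
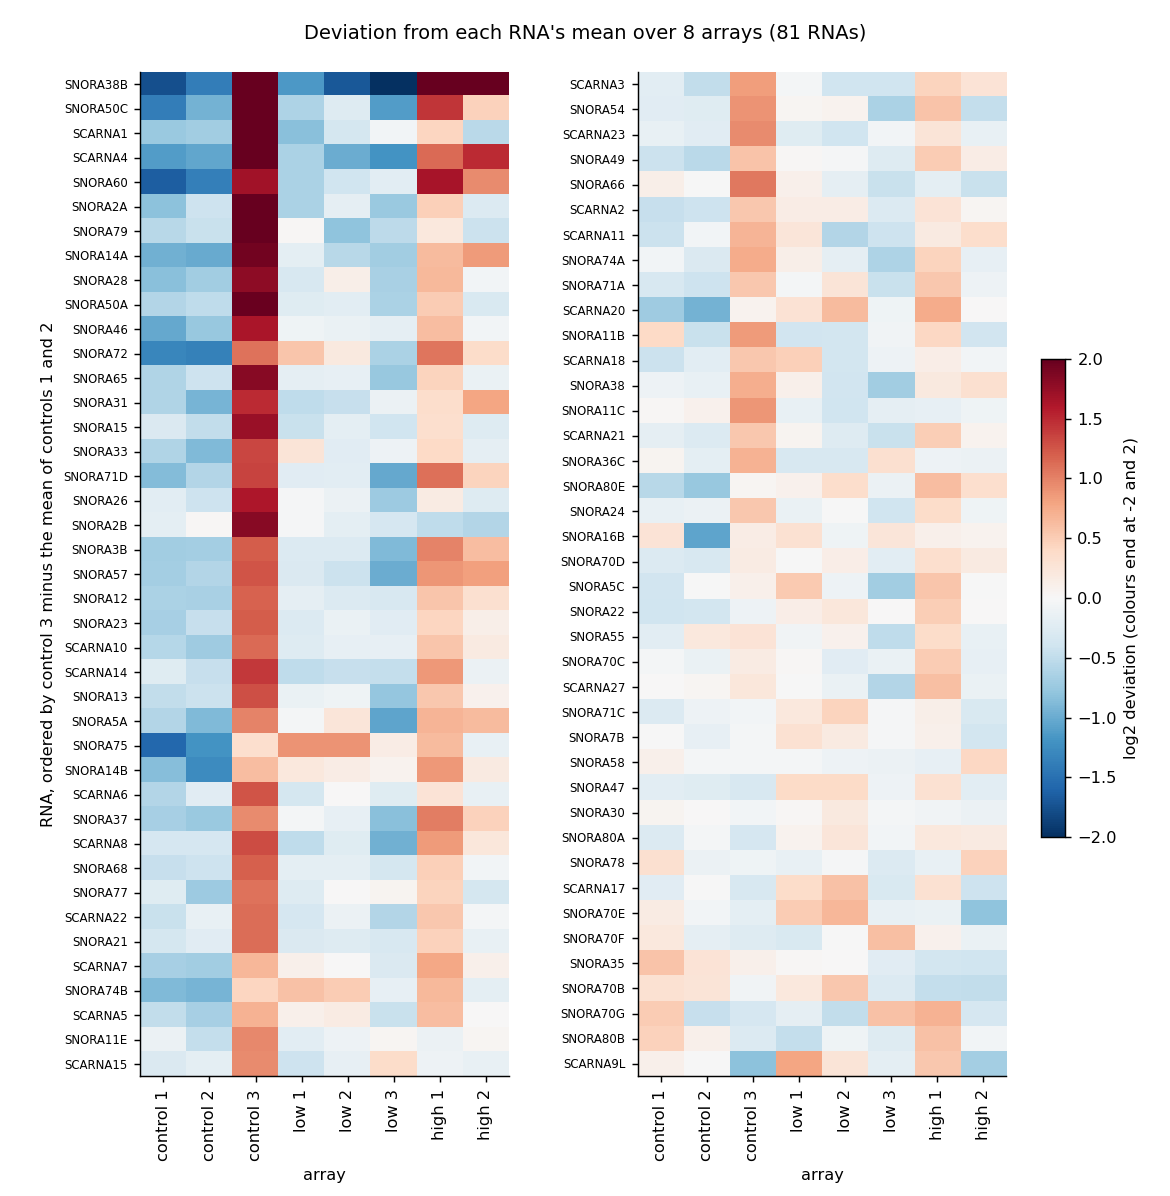
Deviation of each of the 81 RNAs (rows) from its own mean over the 8 arrays (columns), in log2 units, with colours ending at -2 and 2. Rows run from the largest to the smallest value of control 3 minus the mean of controls 1 and 2, from SNORA38B at 5.09 to SCARNA9L at -0.86, and the control 3 column is red down most of the list.

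The 5 RNAs with the widest gap between a single array and the nearest of the other 7 all had control 3 at the top. SCARNA1, a Cajal body RNA from an intron of the phosphatase regulator PPP1R8, read 1.40, 1.45 and 4.92 on controls 1 to 3, 1.31, 1.78 and 2.09 on the low arrays and 2.57 and 1.59 on the high arrays. SNORA79 read 3.80, 3.90 and 6.85 on the controls, 4.37, 3.54 and 3.83 on the low arrays and 4.57 and 3.92 on the high arrays. In both, control 3 alone was set apart from the other 7 arrays, by 2.35 and 2.29. The others were SNORA2A, SNORA50A and SNORA2B, with gaps of 2.09, 1.47 and 1.79 below control 3. SCARNA2, with a promoter of its own, read 4.16, 4.21 and 5.16 on the controls, 4.77, 4.77 and 4.34 on the low arrays and 4.89 and 4.66 on the high arrays, so control 3 was again highest, by 0.27.

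The host genes as a set did not share the difference. According to RefSeq, 66 of the 81 RNAs lie inside exactly 1 coding or long non-coding gene, and 54 of these had a measured host, 49 hosts in all. Hosts were assigned by position alone, and strand was not compared, so a gene on the opposite strand would also count. Of the 31 RNAs with a measured host that stood more than 1 higher on control 3, none (0) had a host that did so, as did only 1.22% of all genes. The RNA's difference was larger than the host's in 45 of 54 pairs. The host median was -0.09, with a range from -0.85 to 0.78 and 20 of 49 hosts above 0. NOL11, the host of SNORA38B, was among those higher on control 3 (values below). SCARNA4 and SNORA80E come from the same host, the RNA-binding protein gene KHDC4, and stood 3.46 and 0.68 higher on control 3 while KHDC4 stood 0.14 higher. SNORA2A and SNORA2B share KANSL2, a subunit gene of a histone acetyltransferase complex, and stood 3.18 and 1.91 higher against -0.28 for the host. SNORA46 and SNORA50A, both inside CNOT1, the scaffold of the CCR4-NOT deadenylase, each stood 2.52 higher against -0.20 for CNOT1.

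**Figure D3:**
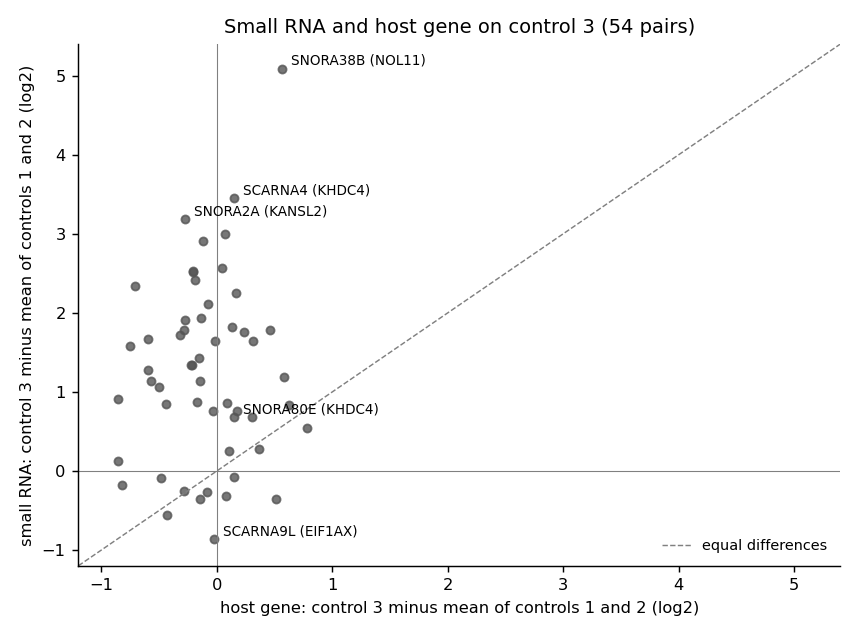
Control 3 minus the mean of controls 1 and 2 (log2) for the host gene (horizontal axis) and for the small RNA inside it (vertical axis), 54 pairs. Hosts were assigned by position without regard to strand. The dashed line marks equal differences; 45 of the 54 points lie above it, and no host reaches 1.

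The low dose was compared with control for the 81 RNAs. No RNA of the 81 passed an adjusted p of 0.05 in limma's fit to all 8 arrays (0 higher, 0 lower), against 1.19% of all genes called higher and 1.81% called lower. Before adjustment, 5 RNAs were higher and 2 lower at p under 0.05, against 5.38% and 8.77% of all genes. The median difference was -0.24 (all genes -0.04), with 27 of 81 differences above 0, and it was 0.19 without control 3. Low arrays lay wholly above the controls for 3 RNAs and wholly below for 4, against 7.03% and 13% of all genes, so neither share was above the background.

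SNORA47 read 7.26, 7.22 and 7.16 on the controls, 7.85, 7.86 and 7.37 on the low arrays and 7.77 and 7.26 on the high arrays. It was 1.39-fold higher at the low dose (log2 0.48 ± 0.19 SE, n = 3 and 3, adjusted p = 0.263), with low 3 closest to the controls. SNORA22 read 8.08, 8.11 and 8.37 on the controls, 8.60, 8.69 and 8.48 on the low arrays and 8.96 and 8.47 on the high arrays. All 5 treated arrays lay above all 3 controls, by 0.40 ± 0.17 at the low dose (adjusted p = 0.314) and 0.53 ± 0.19 at the high dose (adjusted p = 0.243). SNORA71C, from the long non-coding host SNHG17, was 0.36 ± 0.18 higher at the low dose (adjusted p = 0.412). The 4 RNAs with lower low arrays were SNORA11C (-0.57 ± 0.22), SNORA35 (-0.38 ± 0.17), SCARNA27 (-0.33 ± 0.22) and SNORA58 (-0.10 ± 0.17), with adjusted p-values of 0.25, 0.325, 0.565 and 0.883; SNORA11C and SNORA58 were dim, near 1 on the log2 scale, and SNORA11C differed by -0.30 ± 0.16 without control 3.

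SNORA75, singled out after its values were seen, had the largest difference above control of the 81 at the low dose. A larger one lay below control, SNORA38B at -1.79 ± 1.05 (adjusted p = 0.511), and it was -0.09 ± 0.25 without control 3. SNORA75 lies in an intron of NCL, the gene of the nucleolar protein nucleolin. It read 5.34, 5.73 and 7.25 on the controls, 7.81, 7.81 and 7.07 on the low arrays and 7.54 and 6.77 on the high arrays. Controls 1 and 2 were below every treated array, and control 3 fell among the treated arrays. The difference was 2.75-fold at the low dose (log2 1.46 ± 0.43, adjusted p = 0.109, the lowest of the 81) and 2.08-fold at the high dose (1.05 ± 0.48, adjusted p = 0.344). Without control 3 these were 2.03 ± 0.28 (adjusted p = 0.00275) and 1.63 ± 0.30 (adjusted p = 0.0141). The NCL row itself was lower, by -0.39 ± 0.16 at the low dose (adjusted p = 0.292) and -0.44 ± 0.18 at the high dose (adjusted p = 0.301).

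At the high dose again no RNA of the 81 passed (0 higher, 0 lower), against 0.425% and 0.389% of all genes. Before adjustment, 7 were higher and 4 lower at p under 0.05, against 3.03% and 11.4%. The median difference was 0.17 (all genes -0.12), with 58 of 81 differences above 0. Without high 1 it was -0.04, with 37 of 81 above 0, without control 1 there were 42 of 81 above 0, and without control 3 the median was 0.53. Both high arrays lay above every control for 4 RNAs and below for 6, against 7.07% and 22.9% of all genes.

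SNORA80E, from an intron of KHDC4, read 4.81, 4.61 and 5.39 on the controls, 5.44, 5.71 and 5.24 on the low arrays and 5.98 and 5.69 on the high arrays. It was 1.86-fold higher at the high dose (log2 0.90 ± 0.24, n = 2 and 3, adjusted p = 0.135), while KHDC4 itself differed by -0.16 ± 0.19; without control 3 SNORA80E passed (1.12 ± 0.21, adjusted p = 0.0133). The other non-overlapping RNAs above control were SNORA22, given above, SNORA80A (0.42 ± 0.17, adjusted p = 0.292) and SNORA70D (0.40 ± 0.20, adjusted p = 0.385). SNORA35, from an intron of the serotonin receptor gene HTR2C, read 2.63, 2.34 and 2.16 on the controls, 2.09, 2.08 and 1.83 on the low arrays and 1.70 and 1.66 on the high arrays. Its 3 groups did not overlap and stepped down from control to low to high. The high group differed from control by -0.70 ± 0.19 (adjusted p = 0.128), and by -0.81 ± 0.19 without control 3 (adjusted p = 0.0349). The SNORA35 signal was low and the HTR2C row was near 1.

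SNORA2B read 2.01, 2.24 and 4.04 on the controls, 2.19, 2.02 and 1.88 on the low arrays and 1.70 and 1.62 on the high arrays. Both high arrays were the lowest of the 8, and the difference from control was -1.10 ± 0.46 (adjusted p = 0.302) with control 3 and -0.46 without it. SNORA66, SNORA70B and SNORA11C were also lower on both high arrays, by -0.71 ± 0.30, -0.64 ± 0.23 and -0.45 ± 0.25 (adjusted p = 0.298, 0.244 and 0.43). Without control 3, SNORA66 differed by -0.38 ± 0.21, SNORA11C by -0.17 ± 0.18 and SNORA70B by -0.76 ± 0.24.

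The high and low doses were then compared directly. Both high arrays lay above all 3 low arrays for 29 of the 81 RNAs (35.8%) and below them for 4, against 8.77% and 16.7% of all genes. The C/D box small RNAs shared this shift, with 28.7% above and 6.37% below. At a mean log2 value of 5 or more, 54.3% of the C/D box RNAs and 52.6% of the H/ACA and Cajal body RNAs lay above. Of the differences, 64 of 81 were above 0, with a median of 0.36 (all genes -0.07). Even so, 0 RNAs were called in either direction in the fit to all 8 arrays, against 0.00452% and 0% of all genes, and the lowest adjusted p of the 81 was 0.397. Before adjustment, 8 were higher and 2 lower at p under 0.05, against 2.56% and 6.1%. Fitted on the 5 low and high arrays alone, 5 RNAs were called higher (SNORA38B, SCARNA4, SNORA60, SNORA57 and SNORA14A), against 0.131% of all genes.

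SNORA38B, from an intron of NOL11, which encodes a protein of ribosomal RNA processing, had the widest difference of all genes between the doses. It read 4.51, 4.88 and 9.78 on the controls, 5.11, 4.57 and 4.14 on the low arrays and 8.54 and 8.59 on the high arrays. Control 3 and both high arrays formed an upper set, more than 3.4 above the other 5 (3.43), and no array lay between. The high dose was 15.6-fold above the low dose (log2 3.96 ± 1.17, adjusted p = 0.397), and 4.52-fold above control with all 3 controls (2.18 ± 1.17, adjusted p = 0.423). NOL11 read 7.70, 7.60 and 8.21 on the controls and differed by 0.22 ± 0.22 between the doses.

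SCARNA4, a Cajal body RNA from KHDC4, showed the same split of arrays. It read 5.84, 5.92 and 9.34 on the controls, 6.33, 5.97 and 5.77 on the low arrays and 8.09 and 8.46 on the high arrays, and the high dose was 4.77-fold above the low dose (2.25 ± 0.80, adjusted p = 0.485). SNORA60, from the long non-coding host SNHG11, read 3.07, 3.35 and 6.39 on the controls, 4.09, 4.31 and 4.50 on the low arrays and 6.36 and 5.67 on the high arrays. Its low arrays lay above controls 1 and 2 and below the upper 3, and the high dose was 3.28-fold above the low dose (1.72 ± 0.75, adjusted p = 0.564). At the other end, SNORA70B (-0.64 ± 0.23, adjusted p = 0.497), SNORA2B (-0.37 ± 0.46, adjusted p = 0.852) and SNORA35 (-0.32 ± 0.19, adjusted p = 0.645) had both high arrays below all low arrays.

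**Figure D4:**
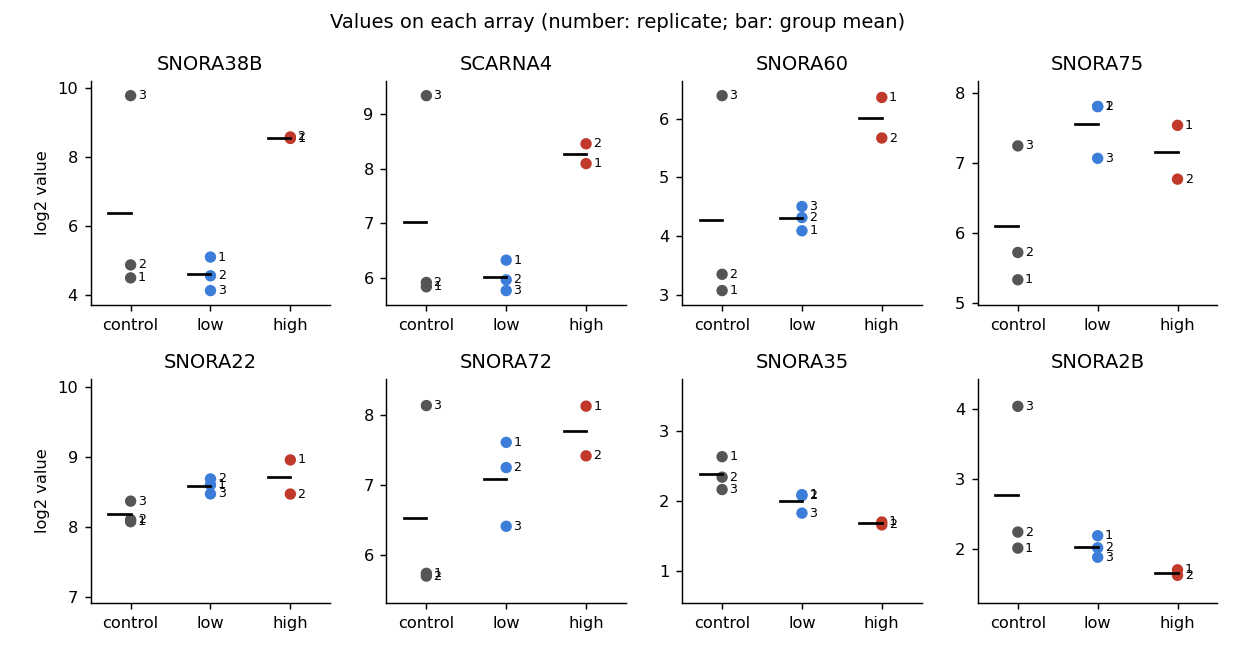
Log2 values (vertical axis, own range per panel) of 8 RNAs on each array by group (horizontal axis), with the replicate number beside each point and a bar at each group mean. In SNORA38B, SCARNA4 and SNORA60 control 3 lies with the high arrays; in SNORA75 it lies among the treated arrays, and in SNORA35 the groups step down from control to high dose.

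Control 3, high 1 and high 2 all lay above the other 5 arrays for 28 of the 81 RNAs (34.6%), against 2.39% of all genes, and did so by more than 1 for 6 genes: SNORA38B, SCARNA4, SNORA60 (1.17) and SNORA57 (1.11) of the 81, and the vault RNAs VTRNA1-2 (1.67) and VTRNA1-1 (1.36), short RNAs made by RNA polymerase III. This pattern was looked for after the values were seen. The hosts of SNORA38B and SCARNA4 lie on chromosomes 17 and 1. Neither host was among the 24 genes that had this pattern by more than 0.5. The 250 bases before the RefSeq start of those 2 hosts, and of NCL, the host of SNORA75, are given for the transcripts from which these RNAs are cut. They are from GRCh38.p14, 5′ to 3′ on the gene's strand, at chr17:67717686-67717935 (plus strand), chr1:155934414-155934663 (minus strand) and chr2:231464485-231464734 (minus strand), and capitals mark CCAAT on either strand (ATTGG on the other).
NOL11 (SNORA38B): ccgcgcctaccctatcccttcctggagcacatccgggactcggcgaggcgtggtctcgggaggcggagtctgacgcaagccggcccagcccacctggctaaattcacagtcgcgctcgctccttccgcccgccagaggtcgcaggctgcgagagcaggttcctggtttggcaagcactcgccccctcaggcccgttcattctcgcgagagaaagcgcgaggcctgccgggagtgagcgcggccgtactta
KHDC4 (SCARNA4, SNORA80E): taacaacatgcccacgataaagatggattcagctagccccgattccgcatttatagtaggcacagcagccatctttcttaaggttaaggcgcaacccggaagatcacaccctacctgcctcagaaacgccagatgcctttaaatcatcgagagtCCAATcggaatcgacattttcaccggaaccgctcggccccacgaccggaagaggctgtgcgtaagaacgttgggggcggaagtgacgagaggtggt
NCL (SNORA75): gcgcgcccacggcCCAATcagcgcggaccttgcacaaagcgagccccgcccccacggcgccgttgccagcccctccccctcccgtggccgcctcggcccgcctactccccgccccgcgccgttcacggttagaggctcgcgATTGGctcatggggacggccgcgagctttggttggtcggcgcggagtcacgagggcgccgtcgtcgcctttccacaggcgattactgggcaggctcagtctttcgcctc
CCAAT occurred 1 time before KHDC4, 2 times before NCL and 0 times before NOL11, and in 32.0% of all 35116 RefSeq promoter windows of this length. The letters CACGTG occurred in none of these 3 windows (0) and in 6.34% of all. The G and C content was 67.2% for NOL11, 52.8% for KHDC4 and 72% for NCL.

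Leaving out each array in turn, control 3 was the single array whose removal gave calls among the 81. Control 3 stood apart in these same RNAs, so removing it narrows their spread, and the calls without it are descriptive only. Without it, limma called 6 RNAs higher and 0 lower at the low dose (1.13% and 1.85% of all genes), 23 higher and 1 lower at the high dose (1.13% and 3.35%), and 7 higher and 0 lower between the doses (0.335% and 0.452%). The median difference from control became 0.19 at the low dose, where it had been -0.24, and 0.53 at the high dose. All low arrays lay above controls 1 and 2 for 24 RNAs and below for 5, against 10.5% and 23.4% of all genes. Both high arrays lay above for 53 RNAs (65.4%) and below for 7, against 13% and 39.1%. With the other controls in place of it the calls were not made: without control 1 or without control 2 there were 0 in each comparison, and the low-dose median was -0.40 or -0.43.

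The 6 RNAs called at the low dose without control 3 were SNORA75, SNORA72, SNORA74B, SNORA14B, SCARNA20 and SNORA60. SNORA75 was 4.09-fold higher there. SNORA72, from an intron of the ribosomal protein gene RPL30, read 5.74, 5.70 and 8.14 on the controls, 7.61, 7.25 and 6.41 on the low arrays and 8.13 and 7.42 on the high arrays. With all 3 controls it differed by 0.56 ± 0.56 and 1.25 ± 0.63 (adjusted p = 0.755 and 0.39). Without control 3 it was 2.58-fold higher at the low dose (1.37 ± 0.31, adjusted p = 0.0364) and 4.14-fold at the high dose (2.05 ± 0.34, adjusted p = 0.0085). All 5 treated arrays were above controls 1 and 2 and none was above control 3. A second SNORA72 row was dim, between 1.05 and 1.65 on all arrays. It differed from all 3 controls by 0.04 at the low dose and -0.15 at the high dose. SNORA14B differed by 1.19 ± 0.22 and 1.58 ± 0.24 (adjusted p = 0.011 and 0.00542), against 0.63 ± 0.39 and 1.02 ± 0.43 with all 3 controls (adjusted p = 0.535 and 0.311).

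At the high dose without control 3, SNORA38B was 14.6-fold above controls 1 and 2 (3.87 ± 0.27, adjusted p = 5.3e-05), SNORA60 7.02-fold (2.81 ± 0.24, adjusted p = 0.000217) and SCARNA4 5.26-fold (2.39 ± 0.22, adjusted p = 0.000336). With all 3 controls, SNORA60 differed by 1.75 ± 0.75 and SCARNA4 by 1.24 ± 0.80 (adjusted p = 0.314 and 0.51). The single RNA called lower was SNORA35. Between the doses the differences themselves do not use the controls and were the same; the standard error of SNORA38B went from 1.17 to 0.25 and its adjusted p from 0.397 to 7.56e-05, with SCARNA4 at 0.000974 and SNORA60 at 0.00835. Whether control 3 or controls 1 and 2 stand for untreated cells cannot be told from these arrays.

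**Figure D5:**
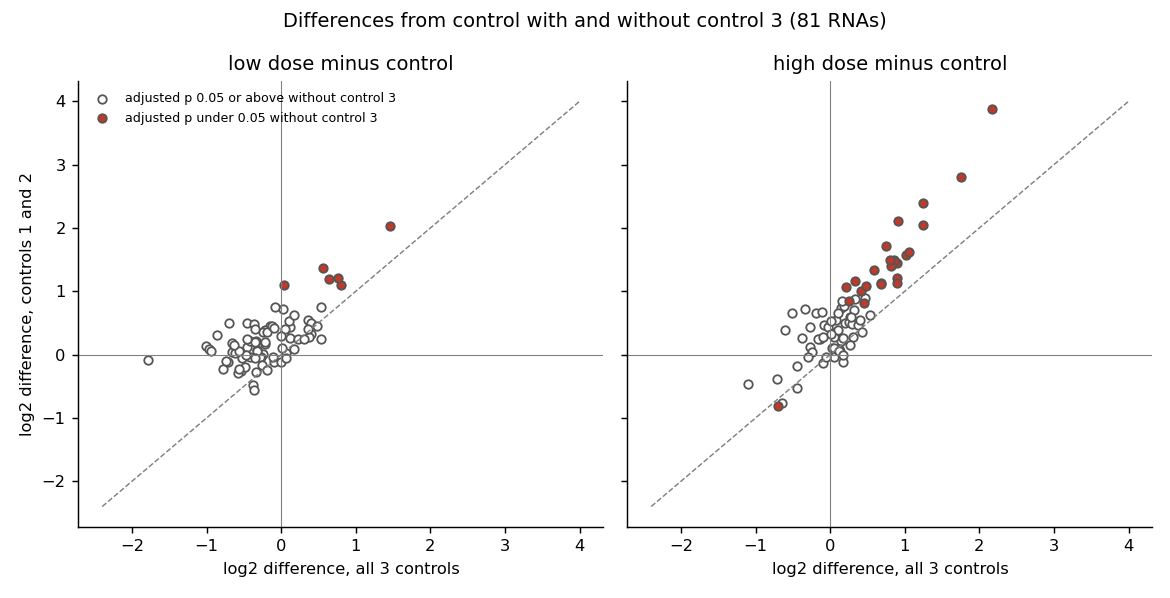
Log2 difference from control for each of the 81 RNAs with all 3 controls (horizontal axis) and with controls 1 and 2 only (vertical axis), at the low dose (left) and the high dose (right). Filled points have an adjusted p under 0.05 without control 3 (6 at the low dose, 24 at the high dose), none does with all 3 controls, and the dashed line marks equal differences.

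None of the measured genes for the proteins that build and carry these RNAs was called. Of the H/ACA core proteins, DKC1 was not measured singly, and NOP10, NHP2 and GAR1 were not called in any comparison, with high-dose differences of -0.25 ± 0.31, -0.47 ± 0.26 and -0.72 ± 0.20 (adjusted p = 0.758, 0.43 and 0.144). On control 3, where most of the RNAs were high, NOP10 was lower by 1.10 than the mean of controls 1 and 2 (-1.10), and NHP2 and GAR1 differed by -0.23 and 0.19. The 4 assembly factors NAF1, SHQ1, RUVBL1 and RUVBL2, which take part in assembling dyskerin with new H/ACA RNA, read lower on every treated array than on every control, as did 13% (low) and 22.9% (high) of all genes, with median differences of -0.60 and -0.57. None of the 4 was called at either dose (0 of 4), although all 4 were lower at an unadjusted p under 0.05 in both, as were 8.77% and 11.4% of all genes; NAF1 differed by -0.73 ± 0.21 at the low dose (adjusted p = 0.103) and RUVBL1 by -0.75 ± 0.22 at the high dose (adjusted p = 0.16).

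Of the Cajal body list, 10 of 11 genes were measured and 0 were called in any comparison. Their median differences were -0.39 and -0.52, COIL, the coilin scaffold of the body, differed by -0.35 ± 0.20 and -0.29 ± 0.22, and WRAP53, which brings SCARNA RNAs and telomerase RNA to it, by -0.21 ± 0.20 and -0.39 ± 0.22. TERC, the telomerase RNA, which ends in an H/ACA domain, read 6.10, 6.29 and 6.88 on the controls, 6.46, 6.33 and 5.81 on the low arrays and 6.81 and 6.35 on the high arrays. Its highest value was again on control 3, a difference of 0.69 where the median of the 81 was 1.19, and the groups overlapped.

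The C/D box small RNAs, which share the nucleolus and the intronic origin, were also highest on control 3. Their median difference on control 3 was 0.34, and at a mean log2 value of 5 or more it was 0.76 over 35 RNAs, against 1.53 for the 38 of the 81 at that level. Their median differences were -0.11 at the low dose and -0.03 at the high dose, and none was called (0 of 157). At a mean log2 value of 5 or more, the C/D box medians were -0.22 (low) and 0.22 (high). Those of the 81 at that level were close, -0.24 and 0.29. RNAs made by RNA polymerase III also stood higher on control 3, among them VTRNA1-1 by 4.15, VTRNA1-2 by 3.96, RN7SK by 0.81 and RMRP by 0.42. Among these, VTRNA1-3 differed by 1.24 ± 0.26 at the high dose (adjusted p = 0.0552). What sets control 3 apart was not tested.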

How the data were processed

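Values were the authors' deposited log2 intensities from Affymetrix Human Gene arrays, made with Transcriptome Analysis Console per the submitters' processing notes; the labels do not state its version or how probes were summarized and normalized. The log base follows from the range: the highest value, 12.0995, is above what natural or base 10 logs of a 16-bit scan reach. Probe sets were named from the platform annotation, 23558 of 53617 rows with 1 symbol, 2155 with several and 27904 with none here, and RefSeq held 80 of the 81 RNAs. limma 3.58.1 in R 4.3.3 was fitted to 22109 genes on all 8 arrays with group as the factor, moderated variances and Benjamini-Hochberg adjustment over all genes; errors are standard errors of log2 differences. In simulated data, 85% of 2-fold and 100% of 4-fold changes were recovered at the low dose, 63% and 100% at the high dose. The 200 changed genes were drawn from all 22109 and given independent noise, without an outlying array. These shares therefore do not carry over to the 81 RNAs, most of which were high on control 3. Over all genes, deviations from the group means correlated at 0.10, 0.15 and 0.20 between same-numbered control and low arrays. Control and low arrays of unlike number ran from -0.18 to 0.12, which overlaps these values, so pairing by number was not established. The 2 high arrays deviate as mirror images of each other, so this check cannot decide their pairing. The members and gene lists were chosen with earlier results of these data known. RNAs were named where called, where groups did not overlap (the 5 widest each way against control, 3 between doses), or for the 5 widest single-array gaps. Alternatives covered scaling, dim genes, rows, variance models, blocks and single arrays.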

Additional observations from a re-analysis of the deposited data

How the results depend on the processing

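With all 8 arrays as deposited, 0 of the 81 RNAs were called in each comparison; subtracting array medians or 75th percentiles, averaging rows and limma-trend also gave 0. Subtracting 75th percentiles moved the high-dose median from -0.12 to 0.05 over all genes and from 0.17 to 0.34 over the 81, and turned 94 higher and 86 lower calls among all genes into 233 and 83. Quantile normalization called 1 RNA higher at the low dose (SNORA47, adjusted p = 0.025; 2.77% of all genes), and testing genes with a mean log2 value of at least 4 called 1 (SNORA75, adjusted p = 0.0279; 3.93%). Array weights, which gave control 3 a weight of 0.31 and low 3 0.373 against 1.72 to 2.66 for controls 1 and 2 and low 1 and 2, called 9 higher at the low dose (4.35% of all genes), and 11 higher and 1 lower at the high dose (1.06% and 3.48%). The replicate block called 1 higher (SNORA60, adjusted p = 0.0463) and 2 lower (SNORA35, 0.0299, and SNORA70B, 0.0358) at the high dose, where it called 0.891% and 4.66% of all genes, and changed no other call. Whether equal replicate numbers mark paired arrays was not established. Fitting only the groups compared called 5 higher between the doses. Leaving out single arrays gave 0 to 6 higher at the low dose, 0 to 23 higher and 0 to 1 lower at the high dose, and 0 to 7 higher between the doses, each maximum without control 3. Leaving out single arrays moved the median from -0.43 to 0.19 at the low dose, from -0.04 (without high 1) to 0.53 at the high dose and from 0.09 to 0.64 between them. Without control 3, low 3 and high 2 together, chosen after seeing the data, 15, 39 and 10 were higher (3.06%, 2.54% and 0.421% of all genes) and 0, 1 and 0 lower (2.72%, 4.53% and 0.574%), with medians of 0.29, 0.75 and 0.51. A lone remaining array in a group is assumed to vary like the others. Array number limits precision, and a whole-transcript probe set does not tell a small RNA from unspliced host RNA.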

Other observations

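Of all 22109 genes, 270 stood more than 1 above on control 3 (against the mean of controls 1 and 2). Of these, 46 were H/ACA or Cajal body RNAs, 28 were C/D box RNAs, 8 were of the 16 genes in the RefSeq class of small nuclear RNAs, 3 were vault RNAs out of 4, and 105 were protein-coding genes, which are 0.619% of the 16957 tested. These classes were counted after the values were seen.

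SNORA38 had 5 rows. The row kept differed on control 3 by 0.85, while 4 rows with identical values read 4.29, 4.65 and 6.54 on the controls, 4.82, 4.47 and 4.05 on the low arrays and 5.30 and 5.15 on the high arrays. Their differences from control were -0.71 and 0.07, against -0.48 and 0.10 for the row kept. Without control 3 the row kept differed by -0.20 and 0.38. SNORA21 had a second row that read 5.08, 5.04 and 5.41 on the controls, with a high-dose difference of -0.63 against -0.03 for the row kept. The row kept of SNORA21 differed by 0.44 at the high dose without control 3. Some RNAs with shared hosts had unlike differences from control at the high dose, but no gap between RNAs of a host was tested. SCARNA4 and SNORA80E of KHDC4 differed from control by 1.24 and 0.90, or 2.39 and 1.12 without control 3. SNORA5A and SNORA5C of TBRG4 differed by 0.82 and 0.37, or 1.39 (adjusted p = 0.0394 in limma's fit) and 0.47 without control 3. SNORA2A and SNORA2B of KANSL2 differed by -0.34 and -1.10, or 0.72 and -0.46 without control 3.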
